A study of Mus musculus with 7 samples.

Results

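A set of 34 astrocyte genes, chosen by symbol from a list of identity, transport, reactivity and metallothionein genes, was examined and found among the 55487 genes counted in mouse cervical spinal cord. They fall into 21 identity and transport genes, 7 reactivity genes (*Gfap*, *Vim*, *Serpina3n*, *Lcn2*, *Cd44*, *Osmr* and *Timp1*), 3 other genes linked to reactivity (*Nes*, *Steap4* and *S1pr3*) and 3 metallothioneins. RNA from 4 mice labelled NEAT1-KO; hSOD1G93A (replicates 1 to 4) was compared with RNA from 3 mice labelled NEAT1-WT; hSOD1G93A (replicates 2 to 4), all 8 weeks of age, to ask which transcripts differ when *Neat1* is lost in this disease model. The groups are called *Neat1*-KO and *Neat1*-WT here. Mice of both groups carried a human SOD1 transgene bearing a mutation of familial amyotrophic lateral sclerosis, so no library comes from an animal without it, and they differed in whether both copies of *Neat1*, a long non-coding RNA, were missing. The knockout is constitutive and not limited to astrocytes. The sex of the animals is not in the labels.

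Astrocytes clear transmitter glutamate and GABA from synapses, buffer potassium and pH, move water at the vessel wall, share small molecules through gap junctions and feed neurons with metabolites. In disease or injury they become reactive: intermediate filament proteins accumulate, and acute phase, protease inhibitor and matrix genes come on. Reactive astrocytes are a known feature of the spinal cord of hSOD1G93A mice, and metallothioneins, small proteins that bind zinc and copper, are made in large amounts by astrocytes.

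The libraries held between 19661878 and 26031517 counts. *Neat1* checked the labels: it was at 5.09, 5.40, 5.52 and 4.04 counts per 1000000 (CPM, after scaling of library sizes by the trimmed mean of M-values) in the *Neat1*-KO mice (replicates 1 to 4) and at 86.2, 80.5 and 118 CPM in the *Neat1*-WT mice (replicates 2 to 4), a log2 fold change of -4.25 (SE 0.15, adjusted p = 1.52e-08 by edgeR's quasi-likelihood test). Replicates of 1 genotype differed by more than sampling noise in all 9 pairs, at 8.07 to 17.7 chi-square units per gene. Of the 18449 genes tested, 6 (0.0325%) were called (adjusted p below 0.1 with a log2 fold change beyond 0.58 in either direction), 2 higher (0.0108%) and 4 lower (0.0217%) in *Neat1*-KO. The median log2 fold change of all genes tested was 0.0062. The tissue is a mixture of cells, so fewer cells of a type and less RNA per cell cannot be told apart for any gene below.

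The identity genes and metallothioneins were well expressed in every library, while the reactivity genes *Lcn2* and *Timp1* were near their detection limit. *Lcn2* had 5 to 36 and *Timp1* 3 to 17 counts per library. Per kilobase of exon, *Sparcl1*, a secreted matrix protein, had the highest mean level at 1210 CPM per kb. It was followed by the calcium-binding protein *S100b* (611), the filament protein *Gfap* (518), the glycolytic enzyme *Aldoc* (467), glutamine synthetase *Glul* (433), the sodium pump subunit *Atp1b2* (323) and *Ndrg2* (275 CPM per kb). The glutamate transporter *Slc1a2* (175) stood well above its relative *Slc1a3* (15.1 CPM per kb), and the water channel *Aqp4* was at 117 CPM per kb. At the other end were *Cd44* (2.18), *S1pr3* (1.63), *Timp1* (0.56), *Osmr* (0.36), *Lcn2* (0.28) and *Steap4* (0.15 CPM per kb). These levels use the summed length of all annotated exons of a gene and depend on it.

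**Figure D1:**
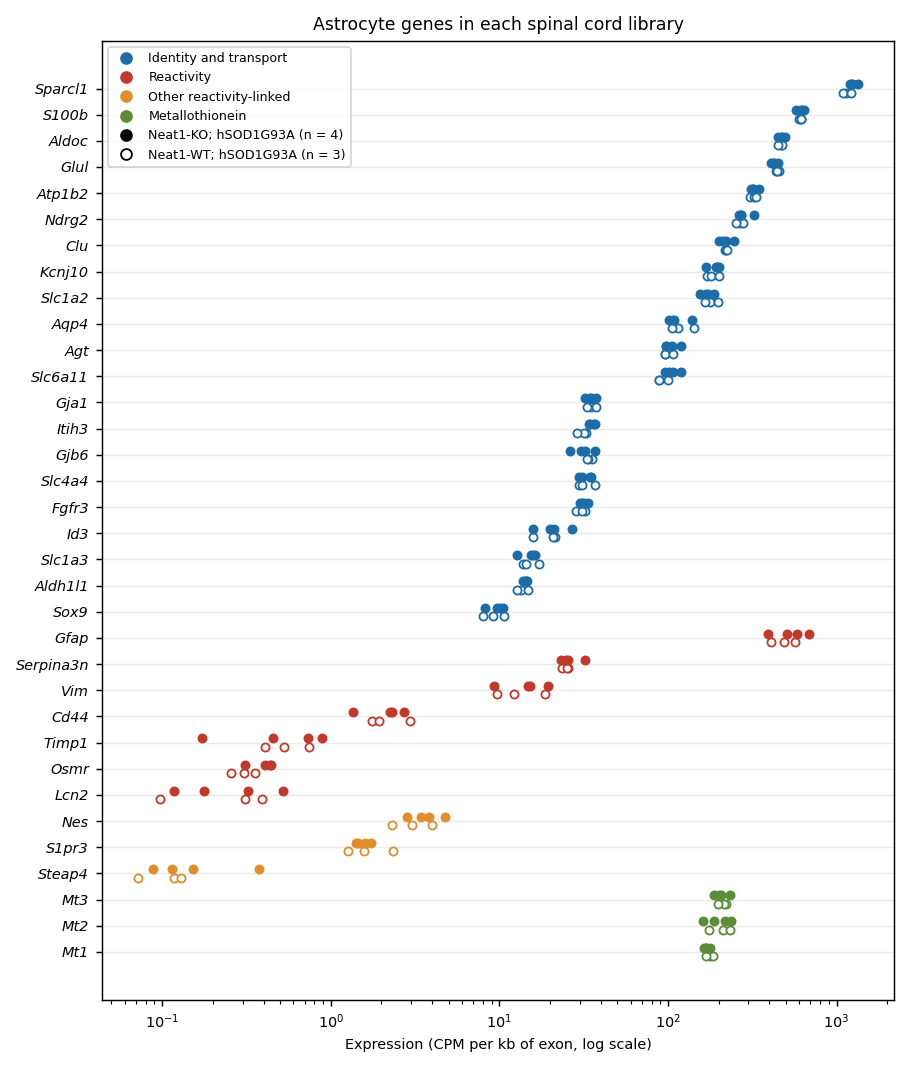
Level of each astrocyte gene in each library, in CPM per kb of exon on a log axis, with filled points for the 4 *Neat1*-KO and open points for the 3 *Neat1*-WT libraries. Identity genes and metallothioneins lie between about the level of *Sox9* and that of *Sparcl1* (1210 CPM per kb on average), 4 of the 7 reactivity genes lie below them, *Gfap* (518) is among the highest of all, and the points of the genotypes overlap for every gene except *Itih3*.

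No astrocyte gene was called as changed between the genotypes, in either direction: 0 of the 33 that had enough counts for the test, against 0.0325% of all genes. Their adjusted p-values by edgeR were 0.992 or more. *Steap4*, a metalloreductase, did not pass the filter on low counts, with 7, 12, 6 and 31 counts in the *Neat1*-KO and 5, 8 and 8 counts in the *Neat1*-WT libraries. Log2 fold changes were positive for 21 and negative for 12 of the 33, with a median of 0.03. At an unadjusted p under 0.05 there were 2 of 33 genes, *Itih3* and *Slc6a11*, both higher in *Neat1*-KO, where 4.64% of all genes were under 0.05 and 2.24% were so and higher. In 1 of 33 genes, *Itih3*, *Neat1*-KO and *Neat1*-WT values did not overlap, against 5.47% of all genes tested (2.91% with *Neat1*-KO above). DESeq2 and limma-voom called none either, with 2 and 3 at an unadjusted p under 0.05. DESeq2 gave an adjusted p for 31 of the 33, and none for *Lcn2* and *Timp1*.

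**Figure D2:**
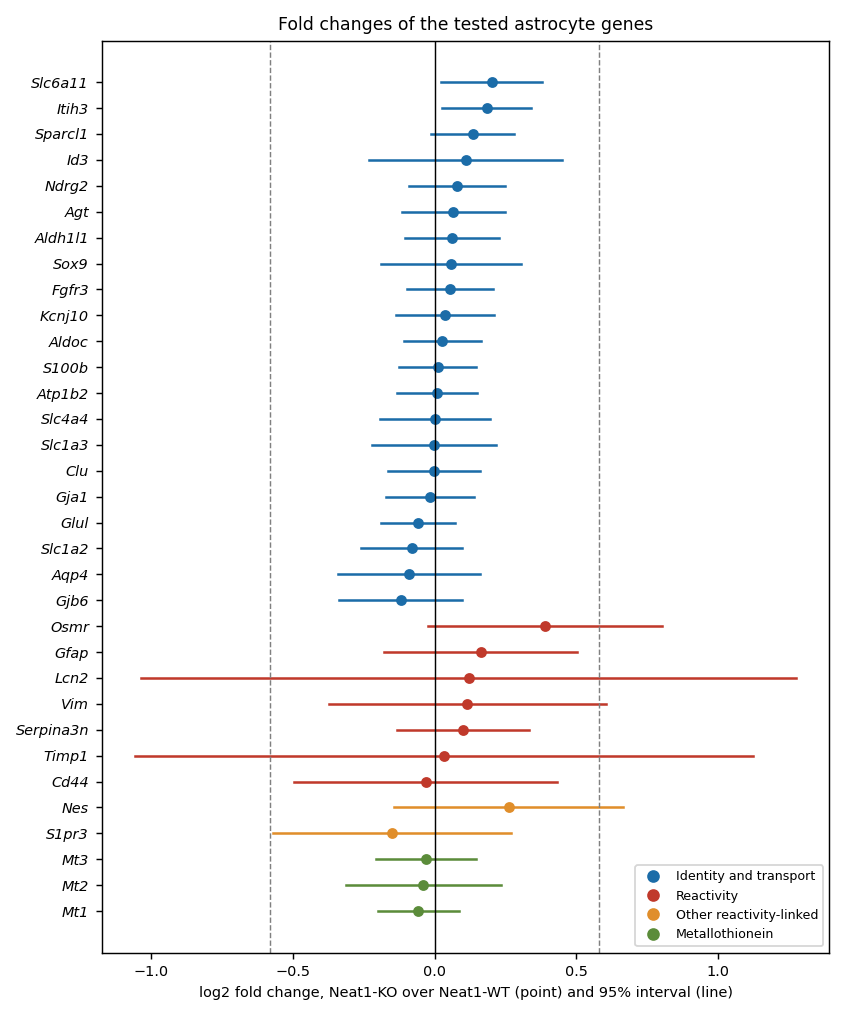
Log2 fold change of *Neat1*-KO over *Neat1*-WT for the 33 astrocyte genes tested by edgeR, with the 95% interval as a line and the fold change used for calling, 0.58 in either direction, as dashed lines. The intervals of *Itih3* (0.03 to 0.34) and *Slc6a11* (0.02 to 0.38) do not cross 0, and those of *Lcn2* (-1.04 to 1.28) and *Timp1* (-1.06 to 1.12) are the widest.

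The identity and transport genes stayed close together. Their log2 fold changes ran from -0.12 for the connexin gene *Gjb6* to 0.20 for *Slc6a11*, with 14 positive and 7 negative and a median of 0.03. The SE of a single gene had a median of 0.079, so that changes of 0.58 lay outside the 95% interval of each of the 21 genes. Summed over the 21 genes, the level in a library was between 15933 and 17175 CPM, a 1.08-fold range over the 7 libraries. It was 16217 to 17151 CPM in *Neat1*-KO and 15933 to 17175 CPM in *Neat1*-WT, and the groups overlapped.

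*Slc1a2* (chr2:102658659-102790784, build GRCm38) encodes GLT-1, the main glutamate transporter of astrocytes, whose loss at end stage is known from models of the disease. Its level was 2046, 2195, 2478 and 2256 CPM in the *Neat1*-KO mice (replicates 1 to 4) and 2327, 2176 and 2616 CPM in the *Neat1*-WT mice (replicates 2 to 4). The groups overlapped, and the log2 fold change was -0.08 (SE 0.08, 95% interval -0.26 to 0.10, adjusted p = 0.992 by edgeR). *Slc1a3* (chr15:8634124-8710764), the transporter GLAST, was at 108, 139, 132 and 135 CPM in *Neat1*-KO and at 117, 124 and 146 CPM in *Neat1*-WT. The lowest library was *Neat1*-KO replicate 1 and the highest *Neat1*-WT replicate 4, so each group spanned most of the range, with a log2 fold change of -0.002 (95% interval -0.22 to 0.22). *Glul* (chr1:153899944-153909723) turns the glutamate taken up into glutamine. It was the gene with the smallest spread among these 33: 1364, 1488, 1394 and 1413 CPM in *Neat1*-KO against 1506, 1447 and 1468 CPM in *Neat1*-WT, a log2 fold change of -0.06 (SE 0.06, 95% interval -0.19 to 0.07).

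*Slc6a11* (chr6:114131241-114249952) encodes GAT-3, which takes up GABA into astrocytes. It was at 516, 542, 482 and 602 CPM in *Neat1*-KO and at 447, 447 and 502 CPM in *Neat1*-WT. *Neat1*-KO replicate 3 lay below *Neat1*-WT replicate 4, and the other *Neat1*-KO libraries lay above all of *Neat1*-WT. The log2 fold change was 0.20 (SE 0.083, 95% interval 0.02 to 0.38), with p = 0.0302 before and 0.992 after adjustment over all genes by edgeR, and the exact permutation test gave p = 0.114 (two-sided, n = 4 and 3). *Itih3* (chr14:30908572-30923760) encodes a heavy chain of the inter-alpha-trypsin inhibitors, proteins that bind hyaluronan in the matrix. Its level was 133, 125, 123 and 135 CPM in *Neat1*-KO and 119, 116 and 106 CPM in *Neat1*-WT, and every *Neat1*-KO library was above every *Neat1*-WT library. The log2 fold change was 0.18 (SE 0.073, 95% interval 0.03 to 0.34), with an unadjusted p = 0.0257 and an adjusted p = 0.992 by edgeR. The exact permutation test gave p = 0.0286 (two-sided), the smallest that 35 splits of 7 libraries allow, in a design where 2.91% of all genes had every *Neat1*-KO library above every *Neat1*-WT library. Neither *Itih3* nor *Slc6a11* passed the correction over all genes.

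*Aqp4*, the water channel of astrocyte endfeet, was at 667, 673, 861 and 630 CPM in *Neat1*-KO and at 717, 661 and 884 CPM in *Neat1*-WT. *Neat1*-KO replicate 3 and *Neat1*-WT replicate 4 stood above the other 5 libraries, so the high libraries were split between the genotypes, and the log2 fold change was -0.09 (SE 0.12, 95% interval -0.34 to 0.16). *Aldh1l1* (chr6:90486427-90600203), a folate enzyme used as a pan-astrocyte marker, was at 64.0, 65.4, 62.6 and 65.8 CPM in *Neat1*-KO and at 61.1, 66.4 and 57.7 CPM in *Neat1*-WT. Its groups overlapped within a 1.15-fold range (log2 fold change 0.06, SE 0.08, 95% interval -0.10 to 0.23).

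The other identity genes can be given by their ranges. The gap junction genes *Gja1* and *Gjb6* had log2 fold changes of -0.02 and -0.12. The potassium channel gene *Kcnj10*, the sodium pump subunit *Atp1b2* and the sodium bicarbonate cotransporter *Slc4a4* were at 0.04, 0.009 and 0.002, the last turning to -0.004 with median-of-ratios scaling. The metabolic gene *Aldoc* and *S100b* were at 0.03 and 0.01. The transcription regulators *Sox9* and *Id3* were at 0.06 and 0.11, and the receptor *Fgfr3* at 0.05. Among secreted proteins, *Sparcl1* was at 0.13 (unadjusted p = 0.068 by edgeR), *Agt*, the precursor of the angiotensins, at 0.07, and *Clu*, a secreted chaperone, at -0.003. *Ndrg2* was at 0.08. None of these 14 genes had libraries that did not overlap between the genotypes.

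The reactivity genes varied more. Of the 7, 6 had a positive and 1 a negative log2 fold change, the median was 0.12, and the range was -0.03 for *Cd44* to 0.39 for *Osmr*. The median SE was 0.215, against 0.079 for the identity genes, and the 95% intervals of *Osmr*, *Vim*, *Lcn2* and *Timp1* reached past 0.58. The summed level of the 7 genes, most of it *Gfap*, was 1749, 3089, 2597 and 2299 CPM in *Neat1*-KO and 1828, 2170 and 2541 CPM in *Neat1*-WT. The lowest and the highest library were both *Neat1*-KO, and the groups overlapped.

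*Gfap* (chr11:102887336-102900912), the filament protein that marks reactive astrocytes, was at 1644, 2908, 2448 and 2154 CPM in *Neat1*-KO and at 1712, 2045 and 2376 CPM in *Neat1*-WT. *Neat1*-KO replicate 1 and *Neat1*-WT replicate 2 were the low libraries, *Neat1*-KO replicates 2 and 3 and *Neat1*-WT replicate 4 the high ones. The log2 fold change was 0.16 (SE 0.16, 95% interval -0.18 to 0.50, adjusted p = 0.992 by edgeR). It was 0.03 without *Neat1*-KO replicate 2, 0.05 without *Neat1*-WT replicate 2, 0.28 without *Neat1*-WT replicate 4 and 0.29 without *Neat1*-KO replicate 1. *Vim* (chr2:13573927-13582826), the other filament gene of reactive astrocytes and one that fibroblasts, endothelium and ependyma also express, had the same low and high ends. It was at 44.2, 91.6, 72.5 and 69.8 CPM in *Neat1*-KO and at 46.2, 58.4 and 88.4 CPM in *Neat1*-WT, with a log2 fold change of 0.12 (SE 0.23, 95% interval -0.37 to 0.60). Within each genotype *Vim* spanned about the whole range of the data, 2.07-fold over the 7 libraries.

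*Serpina3n* (chr12:104406729-104414329), a secreted protease inhibitor that rises in many forms of astrocyte reactivity, was at 48.0, 66.9, 51.6 and 52.7 CPM in *Neat1*-KO and at 52.7, 48.5 and 52.3 CPM in *Neat1*-WT. *Neat1*-KO replicate 2 was highest and the other 6 libraries lay between 48.0 and 52.7 CPM (log2 fold change 0.10, SE 0.11, 95% interval -0.13 to 0.33). *Lcn2* (chr2:32384633-32388252), an acute phase lipocalin of strongly reactive astrocytes, was close to its detection limit. It had 6, 21, 10 and 36 counts in *Neat1*-KO and 18, 22 and 5 counts in *Neat1*-WT, or between 0.25 and 1.37 CPM. With so few counts the 95% interval of its log2 fold change, -1.04 to 1.28 around 0.12, does not exclude a change of 1 on the log2 scale in either direction. *Timp1*, an inhibitor of matrix proteases, had 3 to 17 counts per library and a log2 fold change of 0.03 (95% interval -1.06 to 1.12). *Osmr*, the receptor of oncostatin M, had the largest fold change of the 33 genes, 0.39 (SE 0.19, unadjusted p = 0.0623 by edgeR, exact permutation p = 0.0857), at 3.75, 5.36, 5.29 and 4.92 CPM in *Neat1*-KO and 3.12, 3.69 and 4.28 CPM in *Neat1*-WT. Only *Neat1*-KO replicate 1 fell within the range of *Neat1*-WT. *Osmr* was named after its values were seen. *Cd44*, the hyaluronan receptor, was at -0.03 (SE 0.21), the filament gene *Nes* at 0.26 (SE 0.19) and the sphingosine 1-phosphate receptor *S1pr3* at -0.15 (SE 0.19).

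The metallothioneins differed little between the genotypes. All 3 lie in a cluster on chromosome 8 in the order *Mt3*, *Mt2*, *Mt1*. *Mt1* and *Mt2* are known to be induced by zinc through the factor MTF1 and by glucocorticoids and cytokines, while *Mt3* is a brain form. Because the metal response of these genes lies in their promoters, the 250 bases before each RefSeq start are shown on GRCm38.p6, 5' to 3' on the plus strand, with the core of the metal response element (TGCACNC or TGCGCNC on either strand) in capitals. The windows are chr8:94178839-94179088 for *Mt1*, chr8:94172368-94172617 for *Mt2* and chr8:94152357-94152606 for *Mt3*. They follow RefSeq's starts, which for *Mt1* and *Mt2* are not the GENCODE starts given for the genes below.
Mt1: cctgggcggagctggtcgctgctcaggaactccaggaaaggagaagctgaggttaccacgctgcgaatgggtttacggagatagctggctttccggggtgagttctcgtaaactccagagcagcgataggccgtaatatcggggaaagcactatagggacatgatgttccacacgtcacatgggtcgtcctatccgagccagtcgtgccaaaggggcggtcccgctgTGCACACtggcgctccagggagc
Mt2: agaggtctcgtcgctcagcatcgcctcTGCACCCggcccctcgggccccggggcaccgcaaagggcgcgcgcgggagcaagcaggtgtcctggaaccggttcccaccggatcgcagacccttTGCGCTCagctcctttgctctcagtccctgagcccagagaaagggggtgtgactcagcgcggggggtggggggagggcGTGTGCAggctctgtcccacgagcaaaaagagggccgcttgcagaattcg
Mt3: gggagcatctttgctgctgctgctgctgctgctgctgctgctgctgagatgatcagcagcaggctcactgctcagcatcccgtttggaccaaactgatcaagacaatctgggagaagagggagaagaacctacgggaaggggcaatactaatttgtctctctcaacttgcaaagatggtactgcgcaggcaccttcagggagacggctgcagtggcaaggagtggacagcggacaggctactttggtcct
The core was found 1 time in the window of *Mt1*, 3 times in that of *Mt2* and not in that of *Mt3*. These counts hold for the windows shown and not for whole promoters. Another start would move the window, so the counts do not rank the 3 genes by their metal response elements. With the same search for either form of the core, 21.4% of 32851 mouse promoters of this length held at least 1 and 1.26% held 3 or more. A match of these letters is a description and not a binding site.

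*Mt1* (chr8:94179082-94180327) was at 205, 210, 222 and 209 CPM in *Neat1*-KO and at 221, 230 and 209 CPM in *Neat1*-WT, a log2 fold change of -0.06 (SE 0.07, 95% interval -0.20 to 0.08). *Mt3* (chr8:94152607-94154146) was at 249, 200.1, 214 and 220 CPM in *Neat1*-KO and at 236, 229 and 212 CPM in *Neat1*-WT, a log2 fold change of -0.03 (SE 0.08, 95% interval -0.21 to 0.15). In both genes the groups overlapped, and neither interval reached 0.58 in either direction. *Mt2* (chr8:94172664-94173568) was at 94.99, 110.4, 129 and 138 CPM in *Neat1*-KO and at 125, 137 and 102 CPM in *Neat1*-WT, a log2 fold change of -0.04 (SE 0.13, 95% interval -0.31 to 0.23). *Mt2* shares 73.5% of its exonic bases with the antisense gene *Gm45774*, and in each library the counts of this pair differed by 1 to 14 counts out of 1846 to 3623. Reads of *Mt2* and of *Gm45774* therefore cannot be told apart, and the values hold for the pair. The 3 genes had negative log2 fold changes with a median of -0.04, and their summed level was 520.5 to 568 CPM in *Neat1*-KO and 524 to 596 CPM in *Neat1*-WT.

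The groups of genes differed in how far they varied between animals of 1 genotype. The within-genotype SD on the log2 scale had a median of 0.110 over the identity genes, 0.114 over the metallothioneins and 0.413 over the reactivity genes. Since low counts add noise, each gene was set beside all genes within 2-fold of its level. The SD of *Vim*, 0.453, was larger than that of 99.4% of 4710 such genes, and the SD of *Gfap*, 0.307, larger than that of 98.2% of 56. *Nes* (0.348) and *Cd44* (0.413) were above 97.8% and 97.6% of theirs, while *Osmr*, *Serpina3n* and *Timp1* were above 45.0%, 80.4% and 81.6% and *Lcn2* above 92.2%, so not every reactivity gene was variable for its level. *Id3* (0.289), *Aqp4* (0.207) and *Mt2* (0.231) were above 97.2%, 97.6% and 96.5%. At the other end, the SD of *Glul* was 0.045 and that of *S100b* 0.051, smaller than that of most genes of their level.

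**Figure D3:**
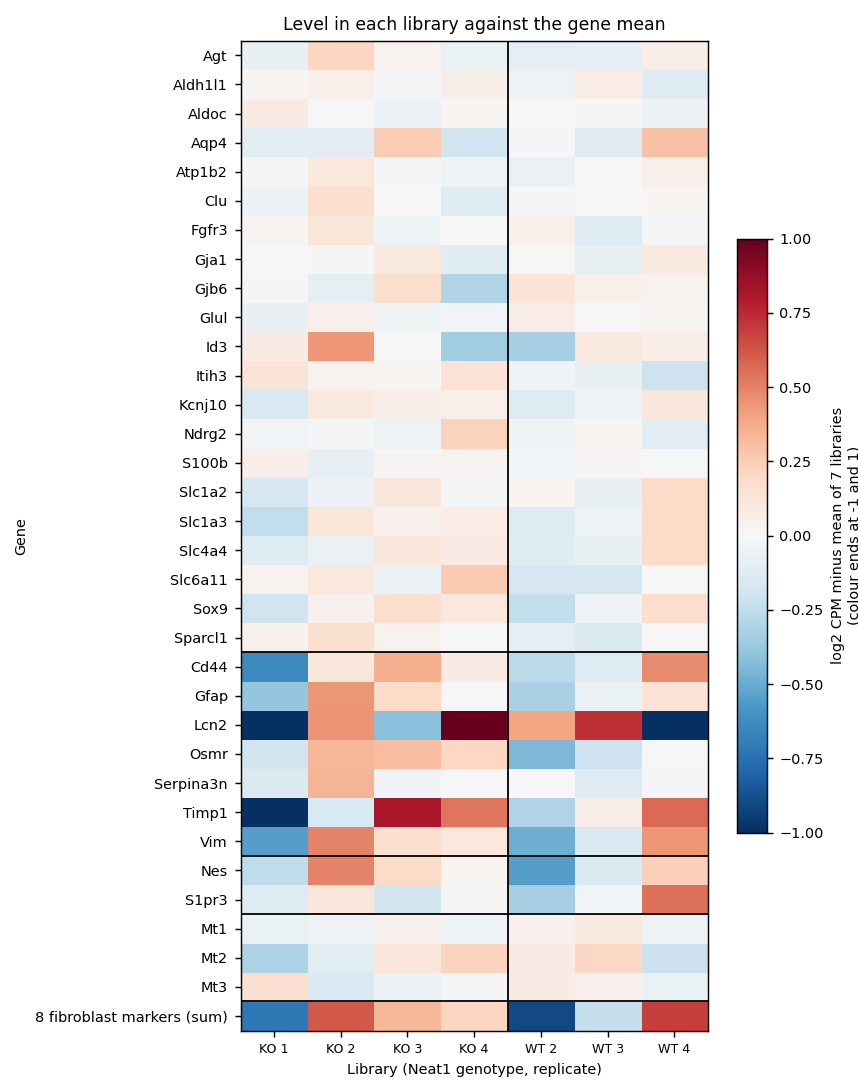
Level of the 33 tested astrocyte genes in each library as log2 CPM minus the gene's mean over the 7 libraries, with the summed level of 8 fibroblast markers in the last line. Columns are the *Neat1*-KO (left) and *Neat1*-WT (right) libraries, lines separate identity, reactivity, other reactivity-linked and metallothionein genes. *Neat1*-KO replicate 1 and *Neat1*-WT replicate 2 are low, and *Neat1*-KO replicate 2 and *Neat1*-WT replicate 4 high, in *Vim*, *Gfap*, *Nes* and the fibroblast markers alike, while most identity genes stay near 0.

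The pattern of *Vim* and *Gfap*, low in *Neat1*-KO replicate 1 and *Neat1*-WT replicate 2, was also seen in the markers of fibroblasts, the collagen-producing cells of the meninges and vessels. The summed level of 8 fibroblast markers (*Col1a1*, *Col1a2*, *Col3a1*, *Dcn*, *Igf2*, *Lum*, *Pdgfrb* and *Slc6a13*) was 102, 255, 209 and 193 CPM in *Neat1*-KO and 89.0, 141 and 268 CPM in *Neat1*-WT, a 3.01-fold range with overlapping groups. None of the 8 was at 0. This measure was picked out after its likeness to *Vim* and *Gfap* was seen in the same libraries, so the relations below describe that likeness and are no independent evidence of it. Its relation to log2 CPM over the 7 libraries was computed for 18403 genes, the 33 astrocyte genes among them, with exact permutation over 5040 pairings and Benjamini-Hochberg adjustment over all of them.

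The relation was positive for *Kcnj10* (r = 0.989, rho = 0.964), *Vim* (r = 0.985, rho = 0.929), *Nes* (r = 0.948, rho = 0.964), *Slc1a3* (r = 0.943, rho = 0.929), *Sox9* (r = 0.934, rho = 0.893), *Gfap* (r = 0.925, rho = 0.857) and *Cd44* (r = 0.875, rho = 0.929), and negative for *Mt3* (r = -0.914, rho = -0.929). The unadjusted exact permutation p-values of these 8 ran from 0.000595 to 0.0101 for r and from 0.00278 to 0.0238 for rho. None passed the adjustment: the adjusted exact p-values ran from 0.171 to 0.229 for r and from 0.248 to 0.350 for rho, and no gene of the 18403 was under 0.1. Without the 2 libraries farthest from the median of the fibroblast markers, *Neat1*-WT replicate 2 and *Neat1*-KO replicate 1, r over the other 5 was 0.990 for *Kcnj10*, 0.978 for *Vim*, 0.957 for *Slc1a3*, 0.877 for *Nes*, 0.780 for *Cd44*, 0.769 for *Gfap*, 0.684 for *Sox9* and -0.871 for *Mt3*. In all, 6 of 33 astrocyte genes had r of 0.9 or more, against 399 (2.17%) of the 18403 genes, and 1 of 33 had r of -0.9 or less, against 1.04%. *Vim* and *Gfap*, whose likeness led to the choice of the measure, are among the 6, so this count follows in part from that choice. The relation spanned identity and reactivity genes. *Aldh1l1* (r = -0.141), *S100b* (r = -0.363), *Glul* (r = 0.116) and *Aqp4* (r = 0.409) had weak relations, and the median r was 0.421 over identity genes and 0.839 over reactivity genes.

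**Figure D4:**
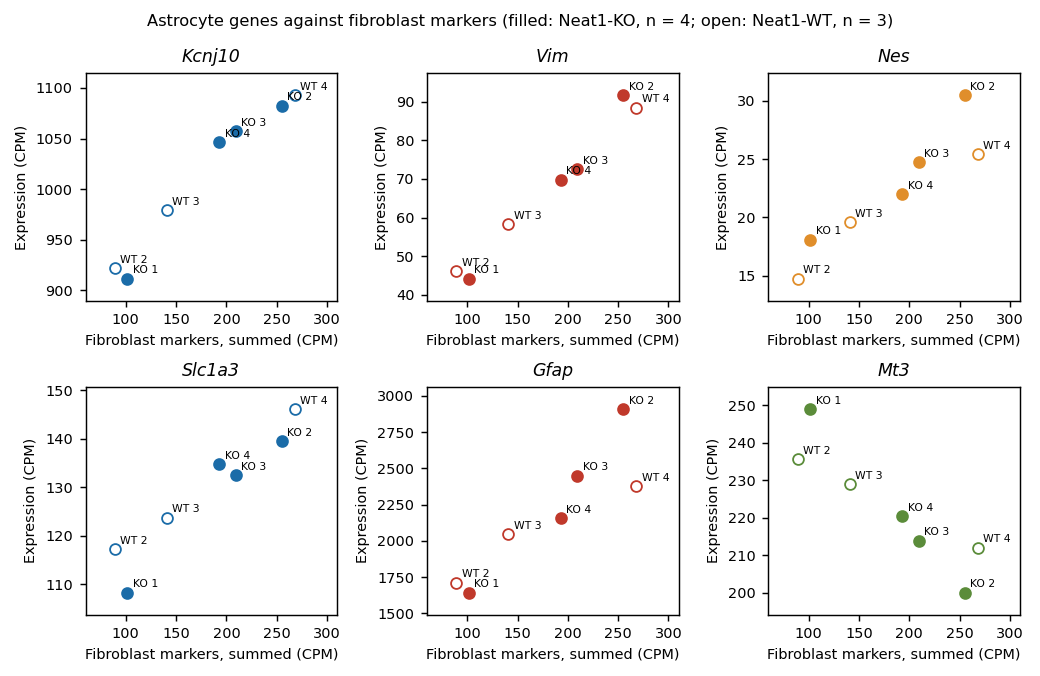
Level of 6 astrocyte genes in CPM against the summed CPM of 8 fibroblast markers, 1 point per library, filled for *Neat1*-KO (n = 4) and open for *Neat1*-WT (n = 3); both axes are linear and do not start at 0. *Kcnj10*, *Vim*, *Nes*, *Slc1a3* and *Gfap* rise with the fibroblast markers and *Mt3* falls, and libraries of both genotypes lie at either end.

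*Kcnj10* (chr1:172341210-172374085) encodes Kir4.1, the channel through which astrocytes take up potassium. It moved over a small range, at 912, 1082, 1057 and 1046 CPM in *Neat1*-KO and 922, 979 and 1093 CPM in *Neat1*-WT, and followed the fibroblast markers most closely. *Nes* (chr3:87971078-87980451) was at 18.1, 30.5, 24.7 and 22.0 CPM in *Neat1*-KO and at 14.8, 19.6 and 25.4 CPM in *Neat1*-WT. Both were lowest in the pair of libraries with the lowest fibroblast markers. When the log2 sum of the fibroblast markers was added to the edgeR fit as a covariate, the log2 fold change of *Gfap* went from 0.16 (SE 0.16) to 0.04 (SE 0.079), that of *Vim* from 0.12 (SE 0.23) to -0.05 (SE 0.075) and that of *Nes* from 0.26 (SE 0.19) to 0.14 (SE 0.093). The fold change of *Cd44* went from -0.03 (SE 0.21) to -0.18 (SE 0.13), and that of *Mt3* from -0.03 to 0.007. The covariate was picked after its likeness to *Vim* and *Gfap* was seen in these libraries. The smaller SEs and shifted fold changes of these genes follow in part from that choice and are no independent estimates. No astrocyte gene was called in that fit either, with adjusted p-values by edgeR of 0.645 or more, the lowest being that of *Itih3* (log2 fold change 0.21, SE 0.063). Fibroblast markers were also higher on average in *Neat1*-KO, with a positive log2 fold change in 8 of 8 genes and a median of 0.24, but 0 of 8 were called. Whether a different share of meninges or vessel wall in the tissue lies behind these values was not tested.

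Among other cell types, the microglial markers varied much as the fibroblast markers did, over a smaller, 1.46-fold range. Summed over 10 genes, they were at 352, 475, 419 and 407 CPM in *Neat1*-KO and at 326, 398 and 442 CPM in *Neat1*-WT. The libraries ranked as they did by the fibroblast markers, except that the 2 highest, *Neat1*-KO replicate 2 and *Neat1*-WT replicate 4, changed places. The pattern was thus not particular to the fibroblast markers. Of the 10 microglial markers, 9 had a positive log2 fold change (median 0.08) and 0 were called. The 6 ependymal markers, whose cells express *Vim* as well, spanned 59.0 to 77.6 CPM in *Neat1*-KO and 62.9 to 74.5 CPM in *Neat1*-WT. The 6 motor neuron markers were at 278 to 338 CPM in *Neat1*-KO and 360 to 428 CPM in *Neat1*-WT. All 6 had negative log2 fold changes (median -0.25), none was called, and 3 were at an unadjusted p under 0.05 by edgeR, against 4.64% of all genes tested. The 8 oligodendrocyte markers were likewise all negative (median -0.16, 0 called), with 3 of 8 at an unadjusted p under 0.05 by edgeR. In 2 of 8 the genotypes did not overlap, against 5.47% of all genes tested. Markers of 1 cell type can vary together, so these counts are not of independent genes. The astrocyte identity genes did not share the negative direction, with 7 of 21 negative. Endothelial markers had 3 of 6 positive.

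Further genes of astrocytes and of the pathways that act on them were read from lists beside the 34. Of 30 other astrocyte genes, 30 were tested and 0 called, with 21 positive and 9 negative and a median log2 fold change of 0.03. The peptide transporter gene *Slc15a2* was the only one of the 30 at an unadjusted p under 0.05 (-0.40, SE 0.15, unadjusted p = 0.0185, adjusted p = 0.992 by edgeR). Of 4 further genes raised in most forms of reactivity, 4 were tested and 1 was called, against 0.0325% of all genes tested. Their log2 fold changes were positive for 3 and negative for 1, with a median of 0.27. The gene called was the negative 1, *Hspb1*, a small heat shock protein. It was at 28.7, 30.8, 31.6 and 28.3 CPM in *Neat1*-KO and at 45.3, 53.0 and 40.7 CPM in *Neat1*-WT, and all *Neat1*-KO values lay below the lowest *Neat1*-WT value (log2 fold change -0.63, SE 0.098, adjusted p = 0.075 by edgeR). The call was lost without *Neat1*-KO replicate 2 (adjusted p = 0.176) or 4 (0.311), or *Neat1*-WT replicate 2 (0.405) or 3 (0.663), by edgeR. *Hspb1* is also expressed by neurons, vessels and muscle, so its level in this tissue is not a measure of astrocytes alone. In the same list the chemokine gene *Cxcl10*, at 0.25 to 1.21 CPM, was at 1.13 (SE 0.46, unadjusted p = 0.0293, adjusted p = 0.992 by edgeR).

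Of 12 genes linked to reactivity after inflammation, 12 were tested, 0 called, and 7 positive. The most abundant were the MHC class I gene *H2-D1* (-0.04, SE 0.18) and the complement gene *C3* (0.81, SE 0.47, unadjusted p = 0.108 by edgeR), which microglia and fibroblasts can express too. Of 12 genes linked to reactivity after ischaemia, 10 were tested, 0 called, and 7 positive. *Sphk1*, a sphingosine kinase, was at -0.36 (SE 0.17, unadjusted p = 0.0488, adjusted p = 0.992 by edgeR). The cytokine pathway through *Il6st* and STAT3, which induces *Gfap*, had 9 of 12 genes tested and 0 called, with 3 positive and 6 negative. In it the receptor gene *Lifr* was at -0.24 (SE 0.10, unadjusted p = 0.0356, adjusted p = 0.992 by edgeR).

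Beside the metallothioneins, 6 of 7 genes of zinc handling were tested and 0 called, with 3 positive and 3 negative. The most abundant were the zinc importer *Slc39a10* (-0.07, SE 0.10) and *Mtf1* itself (-0.09, SE 0.08). *Mt4* was listed among the 7 and had too few counts for the test. Of 12 genes induced by glucocorticoids, which also raise metallothioneins, 12 were tested and 0 called, with 6 positive and 6 negative. *Cdkn1a*, the cell cycle inhibitor p21, was the only one of the 12 at an unadjusted p under 0.05 (-0.41, SE 0.13, unadjusted p = 0.0101, adjusted p = 0.961 by edgeR).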

How the data were processed

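RNA-seq of 7 cervical spinal cord libraries, 1 per sample in the labels, was examined. Per the labels and the methods, the authors selected poly(A) RNA, built strand-marked libraries, obtained paired-end reads, trimmed them with Trimmomatic 0.38, aligned these to mm10 with HISAT2 2.1.0, handled them with SAMtools 1.9 and counted uniquely mapped reads with featureCounts 1.6.3. FastQC 0.11.7 is also listed. The annotation release and the strand setting are not given in the sources used here. The authors deposited raw counts per Ensembl gene, not normalized, with a total of 19661878 to 26031517 per library.

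Names and coordinates were looked up in GENCODE M21 (GRCm38, the same assembly as mm10). It names 55227 of the 55487 genes, and the other 260 hold 0.0045% of the counts. Library sizes were scaled by TMM (factors 0.991 to 1.008), genes were filtered by filterByExpr and tested by edgeR's quasi-likelihood test (4.0.16, R 4.3.3) with Benjamini-Hochberg adjustment over all 18449 genes. The biological coefficient of variation came to 0.128. Calls needed an adjusted p below 0.1 and a log2 fold change beyond 0.58 either way, the limits in the study's legend. A two-sided exact permutation test over the 35 splits into 4 and 3 libraries, whose smallest p is 0.0286, was run for single genes. The labels do not say more about the animals than genotype and age, so p-values measure the spread between these samples.

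Members and lists were chosen with earlier results of these data known. Values in every library were given for genes called, at an unadjusted p under 0.05 or not overlapping, and for a set of 12 defining genes; *Kcnj10*, *Nes* and *Osmr* were added after their values were seen. From the other lists, called genes and up to 3 at an unadjusted p under 0.05 were named, or the 2 most abundant. Promoters of 29 of the 34 genes were matched in RefSeq. Alternatives covered upper-quartile or median-of-ratios factors, no filter, DESeq2 1.42.0, limma-voom (limma 3.58.1), the replicate number as a block, each library left out and other thresholds, and, added after seeing the data, the fibroblast markers as a covariate. The fits were tested on simulated data. Python 3.11.15, pandas 2.3.3, scipy 1.17.1 and matplotlib 3.10.9 were used.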

Additional observations from a re-analysis of the deposited data

Results flagged for a closer look

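Of 33 astrocyte genes, 1 had a library far from the others of its genotype. *Ndrg2*, a gene of the N-myc downstream-regulated family that is abundant in astrocytes, was at 916, 917, 899 and 1093 CPM in the *Neat1*-KO mice (replicates 1 to 4) and at 906, 945 and 864 CPM in the *Neat1*-WT mice (replicates 2 to 4). The gap from *Neat1*-KO replicate 4 to its nearest neighbour was 0.91 of the range of the group, above the limit of 0.829 for 4 samples. Chance gives about 1.65 such genes among 33. Only the *Neat1*-KO group has the 4 samples that the rule needs.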

How the results depend on the processing

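No astrocyte gene was called under any of the alternatives (DESeq2 gave no adjusted p for *Lcn2* and *Timp1*), while the number of genes called over the whole table was 6 with median-of-ratios or upper-quartile factors and with limma-voom, 27 with DESeq2, 124 without the filter and 3 to 31 with a library left out. Astrocyte genes at an unadjusted p under 0.05 numbered 0 to 5, with 5 without *Neat1*-KO replicate 1 and 0 without *Neat1*-KO replicate 4. The median log2 fold change of the identity genes ran from -0.02 (without *Neat1*-WT replicate 2) to 0.05, that of the reactivity genes from 0.03 to 0.29, and that of the metallothioneins from -0.096 to -0.009. Some genes turned sign. *Slc4a4* did so with median-of-ratios factors (-0.0038), without the filter (-0.0015) and with DESeq2 (-0.0037). With limma-voom *Slc1a3* (0.00096) and *Timp1* (-0.12) did. With the fibroblast covariate *Slc4a4* (-0.036), *Kcnj10* (-0.0073), *Sox9* (-0.0044), *Atp1b2* (-0.0087), *Timp1* (-0.19) and *Mt3* (0.0074) turned sign. *Vim* did too, from 0.12 in the main fit to -0.054. The cause was not tested. With the replicate number as a block, 39 genes were called over the whole table, none of them among the 33, and *S100b* (-0.011), *Slc1a3* (0.077), *Clu* (0.011), *Cd44* (0.16) and *Mt2* (0.054) turned sign. Libraries with the same number did not vary together (correlations of -0.20, -0.12 and -0.01 for numbers 2, 3 and 4), so the numbers were not taken to pair the samples. Leaving out each library in turn turned the sign of 20 genes, whose log2 fold changes then ran from -0.00084 to 0.12 for *Agt*, from -0.00043 to 0.049 for *Aldoc*, from -0.20 to 0.036 for *Aqp4*, from -0.027 to 0.036 for *Atp1b2*, from -0.17 to 0.22 for *Cd44*, from -0.064 to 0.037 for *Clu*, from -0.058 to 0.027 for *Gja1*, from -0.036 to 0.23 for *Id3*, from -0.017 to 0.11 for *Kcnj10*, from -0.35 to 0.49 for *Lcn2*, from -0.15 to 0.054 for *Mt2*, from -0.10 to 0.014 for *Mt3*, from -0.013 to 0.039 for *S100b*, from -0.33 to 0.13 for *S1pr3*, from -0.010 to 0.16 for *Serpina3n*, from -0.067 to 0.094 for *Slc1a3*, from -0.058 to 0.10 for *Slc4a4*, from -0.042 to 0.17 for *Sox9*, from -0.25 to 0.30 for *Timp1* and from -0.075 to 0.41 for *Vim*. Without changing sign, *Gfap* ran from 0.026 to 0.29 and *Nes* from 0.083 to 0.47. The planned covariate *Xist* could not be fitted, because *Xist* had 0 to 4 counts in every library and did not pass the filter. Counts under about 40 per library limit *Lcn2*, *Timp1* and *Steap4*.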

Other observations

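The nearly equal counts of *Mt2* and its antisense gene *Gm45774* were looked for in other gene pairs. Of 26 annotated genes over 200 bp that lie wholly within the exons of a gene with at least 20000 counts on the opposite strand, 26 had counts, from 104 to 28008. Of 4 such genes on the same strand, 0 had counts. Within the 34 astrocyte genes, smaller stretches overlap a gene of the opposite strand: 13.9% of the exonic bases of *Fgfr3*, 11.0% of *Aldh1l1*, 3.49% of *Glul*, 1.44% of *Slc1a2* and 1.01% of *S1pr3*. Their values hold for reads of either strand in those stretches.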
